A study of Homo sapiens with 9 samples.

Results

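The integrated stress response and the charging of transfer RNA were followed in OVCAR3 cells, a human line of high-grade serous ovarian carcinoma, after the level of *CTCFL* (BORIS) was raised or lowered. *CTCFL* is the germ-line paralog of the DNA-binding protein CTCF. A list of 39 genes was described, out of 60660 gene identifiers in the count table. The first 27 are genes linked to the transcription factor ATF4, namely its partners, its stress targets and the enzymes of serine, proline, cysteine and mitochondrial one-carbon metabolism. The other 12 are cytosolic aminoacyl-tRNA synthetases, and both sets are reported apart. The genes are a named list, to which no threshold on their values was applied. Of the 39 genes, 38 had enough counts to be tested, and the hormone gene *FGF21* did not.

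RNA-seq counts were available for 9 libraries, 3 in each of 3 groups. Control cells received the LacZ plasmid pCpGfree-vitroHLacZ according to the study's methods, while the sample labels give their *CTCFL* treatment as none and name no plasmid; CTCFL-OE cells received pCpGfree-vitroHBORIS, which carries the open reading frame of *CTCFL*. The transfections were transient, used 2 µg of plasmid with Xfect, and ended 48 h later. CTCFL-KD cells were treated with siRNAs against *CTCFL*, and their RNA came from earlier knockdown experiments. All cells grew in RPMI-1640 medium with 20% serum and insulin, and each library pooled 3 technical replicates of 1 biological replicate. No siRNA control is among the groups, so in CTCFL-KD against Control the knockdown, the siRNA, the plasmid and the experiment cannot be told apart.

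In the integrated stress response, kinases that sense amino acid shortage, unfolded protein, double-stranded RNA or lack of heme phosphorylate the translation factor eIF2. General translation falls, while the mRNA of ATF4 is translated better, so that much of the control of ATF4 is not visible in its transcript level. ATF4 pairs with C/EBP proteins on C/EBP-ATF response elements and raises genes of amino acid synthesis and uptake, several cytosolic tRNA synthetases, and the pro-apoptotic factor CHOP. Tumor cells use the same program when amino acids, glucose or oxygen are scarce.

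The core of the C/EBP-ATF response element was searched for as TGATGNAA on both strands of the RefSeq promoters (GRCh38.p14), from 250 bases before to 50 bases after each start. A promoter entry was matched for 31 of the 39 genes. The genes without one were *PSPH*, *SHMT2*, *ALDH1L2*, *PYCR1*, *NUPR1*, *INHBE*, *YARS1* and *LARS1*. The word was found in 7 of 10 synthetase genes (70%) and in 5 of 21 stress response and metabolic genes (23.8%), against 4.46% of 27305 genes in the RefSeq table. A match is a description of the letters and not of a bound site. The words of both sets are shown with 10 bases on each side, read along the word, which stands in capitals; the regions give the position of the printed stretch and the sign gives its strand.
*AARS1*, chr16:70289676-70289703, + strand: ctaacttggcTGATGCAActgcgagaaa
*CARS1*, chr11:3057408-3057435, + strand: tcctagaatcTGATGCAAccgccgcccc
*GARS1*, chr7:30594835-30594862, - strand: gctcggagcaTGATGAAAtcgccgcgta
*IARS1*, chr9:92293693-92293720, + strand: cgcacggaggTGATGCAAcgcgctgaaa
*MARS1*, chr12:57488054-57488081, - strand: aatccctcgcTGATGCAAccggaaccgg
*NARS1*, chr18:57621805-57621832, - strand: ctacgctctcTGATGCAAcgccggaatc
*TARS1*, chr5:33440957-33440984, - strand: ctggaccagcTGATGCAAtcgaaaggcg
*ATF3*, chr1:212565206-212565233, + strand: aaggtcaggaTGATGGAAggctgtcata
*CEBPG*, chr19:33374061-33374088, + strand: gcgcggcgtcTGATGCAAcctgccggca
*FGF21*, chr19:48755460-48755487, - strand: tcctcctcccTGATGCAAtcctggtgtt
*ASNS*, chr7:97872459-97872486, - strand: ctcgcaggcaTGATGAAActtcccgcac
*CHAC1*, chr15:40953252-40953279, - strand: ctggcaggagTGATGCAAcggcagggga

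Of the members with an adjusted p past the threshold and a fold change over 2, *ASNS* and *CHAC1* carried the word in a matched promoter. Their promoters are therefore given over the 250 bases before the start, along the gene, with the word in capitals. In *CHAC1* it lies on the opposite strand and so appears as its reverse complement.
*ASNS*, chr7:97872409-97872658, - strand: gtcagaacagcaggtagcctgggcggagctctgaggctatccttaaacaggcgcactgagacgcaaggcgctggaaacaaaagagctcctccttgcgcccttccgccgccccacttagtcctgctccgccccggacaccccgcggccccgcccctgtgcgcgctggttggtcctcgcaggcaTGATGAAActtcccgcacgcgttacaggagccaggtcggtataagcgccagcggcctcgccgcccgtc
*CHAC1*, chr15:40953221-40953470, + strand: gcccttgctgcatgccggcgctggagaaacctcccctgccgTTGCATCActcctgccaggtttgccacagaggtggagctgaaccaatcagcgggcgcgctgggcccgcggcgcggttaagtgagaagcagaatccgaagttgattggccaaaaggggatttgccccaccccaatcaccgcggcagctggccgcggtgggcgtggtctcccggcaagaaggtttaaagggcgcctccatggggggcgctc

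The core of the CTCF and CTCFL motif, AGGGGGC, was found in 5 of the 21 stress response and metabolic genes and in 0 of the 10 synthetase genes, against 16.6% of all genes in the promoter table. The study searched for CTCFL sites only near the starts of genes differentially expressed in both of its comparisons of these data. A listed site is therefore not independent of the expression values, and members outside that set were not searched. The genes that the study kept for a ChIP-seq peak at the site include neither *GDF15* nor *INHBE*. Of the predicted CTCFL sites that the study lists, those of 2 members were found in GRCh38 within 1 base of the listed position, in *GDF15* and *INHBE*. They are shown with 10 bases on each side, with the listed site, to which the coordinates refer, in capitals.
*GDF15*, chr19:18385056-18385065, - strand: tcgcttgaacCCAGAGGGCGgaggttgcag
*INHBE*, chr12:57454561-57454569, - strand: tcaggactgtCAGGGGGCAtgacacttgg

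The libraries held between 14332622 and 24490080 counts. *CTCFL* itself rose by 2.73 on the log2 scale in CTCFL-OE (edgeR quasi-likelihood F-test, Benjamini-Hochberg adjusted p = 0.0287) and fell by 3.79 in CTCFL-KD (adjusted p = 0.0162), where its counts were 0, 1 and 0. Mitochondrial genes took 6.16% to 6.52% of the Control counts, 7.40% to 14.9% of those of CTCFL-OE and 7.80% to 11.8% of those of CTCFL-KD. CTCFL-KD replicate 1 stood apart most, with a TMM scaling factor of 0.775. The Spearman correlation between gene length and its deviation from the other libraries of its group was -0.52, against 0.52 and 0.48 in the other CTCFL-KD libraries. Replicate 1 was also the negative one in Control (-0.33, against 0.17 and 0.17) and in CTCFL-OE (-0.12, against 0.12 and 0.07). All 12 epithelial and ovarian carcinoma markers were detected in every library, and their summed level was 4699 to 4867 CPM (counts scaled to the size of the library, with TMM) in Control, 4475 to 4729 in CTCFL-OE and 10301 to 17429 in CTCFL-KD. The 20 fibroblast markers, of which 12 had enough counts to be tested, summed to 324 to 332, 290 to 419 and 305 to 771 CPM. After knockdown 4 of the 12 passed, 2 higher and 2 lower, with a median of -0.14, and of the defining collagens *COL1A1* had 522 to 794 counts in Control and 289 to 389 in CTCFL-KD, while *COL1A2*, at a count of 0 in the 3 Control libraries, had 156 to 247 counts in CTCFL-KD, and *COL3A1*, at 0 in both other groups, had 8 to 9. The 10 leukocyte and endothelial markers, 5 of them tested, summed to 8.76 to 10.1, 12.2 to 13.1 and 15.8 to 22.8 CPM. After knockdown 4 of these 5 passed, 3 higher and 1 lower. The part of these differences in the results below was not tested.

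**Figure D1:**
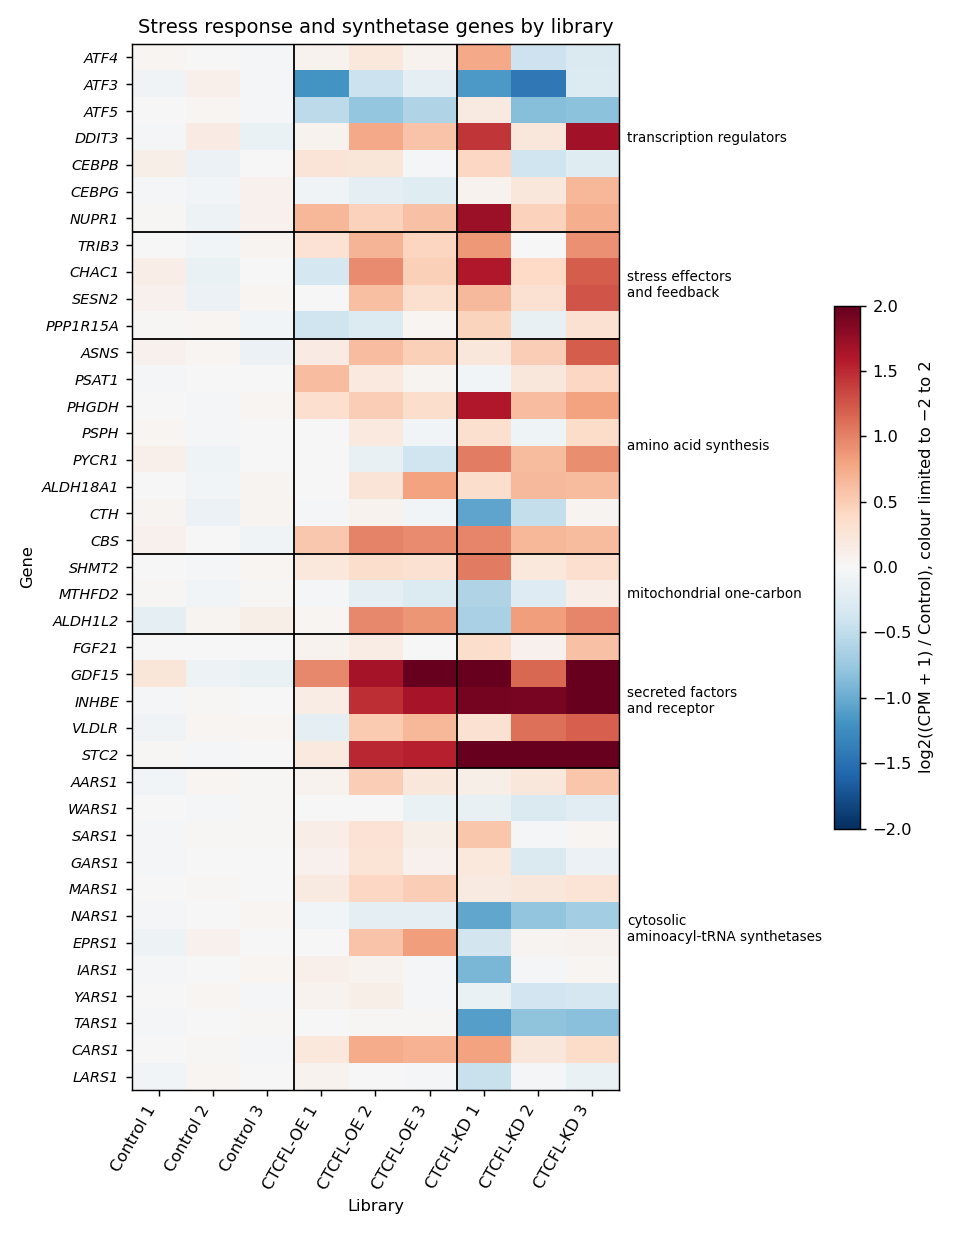
Each cell gives log2((CPM + 1) / mean of Control) for 1 gene (rows, grouped by role) in 1 library (columns), with colours limited to 2 in either direction. The Control columns are near 0 throughout, and the stress response and metabolic genes in CTCFL-KD are mostly above 0 with medians of 0.55, 0.27 and 0.70. Of the synthetases, *NARS1* and *TARS1* are below 0 in all 3 CTCFL-KD libraries by 0.69 or more. *CARS1* (0.22 to 0.81), *MARS1* (0.18 to 0.50) and *AARS1* (0.07 to 0.56) are above 0 in all 6 treated libraries.

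When *CTCFL* was raised, 2 of the stress response and metabolic genes passed the test. Of the 26 tested, *GDF15* and *CBS* passed the adjusted p of 0.1, both higher, and *GDF15* was a DEG, which also requires a fold change over 2; across all 17794 genes tested, 3.15% passed (1.99% higher and 1.16% lower) and 2.07% were DEGs (1.37% higher and 0.702% lower). The median log2 fold change of the 26 genes was 0.37, against -0.01 for all genes. The groups did not overlap in 14 of them, 11 with CTCFL-OE higher and 3 with it lower, where 37.1% of all genes did not overlap, 16.3% higher and 20.8% lower. CTCFL-OE replicate 1 was close to Control: the median log2 ratio of these genes to the mean of Control was 0.05 there, and 0.41 and 0.33 in replicates 2 and 3. Mitochondrial counts followed the same order of the first library against the others, with 7.40% against 12.4% and 14.9%.

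These OE calls depended on single libraries. Neither *GDF15* nor *CBS* passed without any one of the Control libraries, without CTCFL-OE replicate 2 or without CTCFL-OE replicate 3, and no stress response or metabolic gene then did; in these 5 fits 0.24% to 0.635% of all genes passed, and the log2 fold changes were 1.60 to 2.29 for *GDF15* and 0.76 to 0.88 for *CBS*. Without CTCFL-OE replicate 1 there were 4 such genes (15.1% of all genes), without CTCFL-KD replicate 3 also 4 (2.43%), and without CTCFL-KD replicate 1, which is outside this comparison but shares the estimate of spread, 9 (8 higher, 1 lower); in the last fit 27.4% of all genes passed. The DEG count was 0 in the first 5 of these fits, 3 in the next 2 and 4 in the last. Over all genes, 368 were DEGs in the reported fit, 44 to 109 in the first 5, 1184 and 321 in the next 2 and 980 in the last.

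After knockdown, the stress response and metabolic genes that passed were all higher. Of the 26 tested, 13 passed the adjusted p of 0.05 (38.2% of all genes passed, 21.4% higher and 16.8% lower), and 8 were DEGs, all higher (23.2% of all genes were DEGs, 15.3% higher and 7.94% lower). The median log2 fold change of the 26 was 0.64, against 0.08 for all genes, with 21 values above 0 and 5 below. The groups did not overlap in 15 genes, 14 with CTCFL-KD higher and 1, *ATF3*, with it lower, where 56.3% of all genes did not overlap, 28.7% higher and 27.6% lower. In bulk RNA, a change in the share of cells of a type and a change in RNA per cell cannot be told apart. The count past the adjusted p was 8 without Control replicate 2 and 6 without Control replicate 3, where 26.7% and 25.8% of all genes passed. Without the latter 5 of the 26 genes were DEGs, and 3661 of all genes were, against 4132 in the reported fit. With the length and GC trends of each library removed, 15 genes passed, 12 higher and 3 lower, where 43.7% of all genes passed and the medians were 0.49 for the 26 and -0.04 for all genes.

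**Figure D2:**
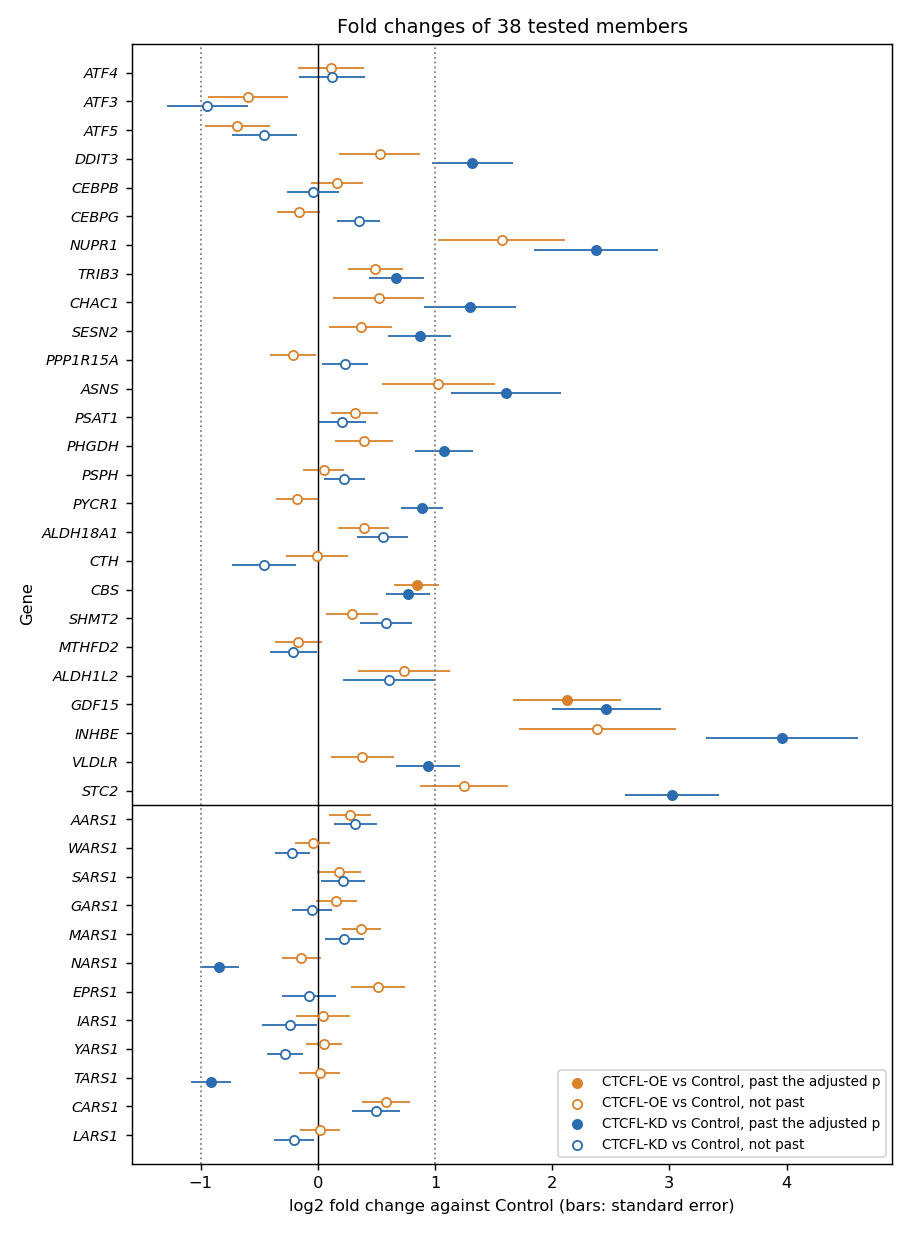
Log2 fold changes of the 38 tested genes in CTCFL-OE (orange) and CTCFL-KD (blue) against Control, with standard errors as bars, n = 3 libraries a group; filled points passed the adjusted p, and dotted lines mark a fold change of 2. The largest changes are those of *INHBE*, *STC2*, *GDF15* and *NUPR1* above the horizontal line, and among the synthetases below it only *NARS1* and *TARS1* are filled.

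Of the transcription regulators, *DDIT3* and *NUPR1* rose after knockdown and the other 5 did not pass; 2 of 7 is 28.6%, against 38.2% of all genes. *ATF4* (chr22:39519695-39522683) had 225, 216 and 212 CPM in Control, 227, 251 and 229 with CTCFL-OE, and CTCFL-KD gave 370, 163 and 178. The knockdown libraries fell on both sides of Control, with replicate 1 above and the others below. The log2 fold change was 0.12 in both comparisons (adjusted p = 0.857 and 0.759, edgeR). Without CTCFL-KD replicate 1 the change after knockdown turned to -0.35 (adjusted p = 0.0244). Named pseudogenes of *ATF4* summed to 10.3 CPM on average, so a part of its reads could be split among copies.

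*DDIT3* encodes CHOP, a factor that favors apoptosis under lasting stress (ENSG00000175197.12, chr12:57516588-57521737, minus strand). It had 8.41, 9.64 and 7.65 CPM in Control, 9.03, 15.1 and 13.1 with CTCFL-OE, and CTCFL-KD gave 24.6, 10.1 and 29.5. All knockdown libraries were above Control, with replicate 2 just above it, and the CTCFL-OE libraries overlapped Control. The rise after knockdown was 1.32 ± 0.35 (log2 with SE, adjusted p = 0.0122), and the difference of 0.53 in CTCFL-OE did not pass (adjusted p = 0.446). Without Control replicate 3 the adjusted p after knockdown was 0.0511. Exons of *MARS1*, on the other strand, and of other genes cover 39.6% of its exon bases, and the strand setting of the counting is not given in the sources used here.

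*NUPR1* encodes a small chromatin-associated stress protein (ENSG00000176046.9, chr16:28532708-28539008, minus strand). Its level was low, with 0.351, 0.233 and 0.405 CPM in Control, 1.09, 0.836 and 0.983 with CTCFL-OE, and CTCFL-KD gave 3.34, 0.832 and 1.21. These levels were 6 to 8 counts a library in Control and 14 to 37 in the others. Every CTCFL-OE and every CTCFL-KD library was above Control. The knockdown rise was 2.37 ± 0.53 (adjusted p = 0.00537), and the difference of 1.57 in CTCFL-OE did not pass by edgeR (adjusted p = 0.175) but did by DESeq2 (adjusted p = 0.0832).

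*ATF3*, a stress-induced repressor of the same family, was lower in all CTCFL-KD libraries (5.95, 4.76 and 11.7 CPM) and in all CTCFL-OE libraries (5.75, 10.5 and 12.5) than in Control (13.7, 15.7 and 14). With log2 differences of -0.94 (adjusted p = 0.0528) and -0.60 (adjusted p = 0.387), neither passed, although DESeq2 called the first (adjusted p = 0.025) and 7 of 17 alternative settings did. Without CTCFL-KD replicate 3 the first was -1.45 (adjusted p = 0.00673). With the replicate number added to the fit as a block, *ATF3* passed after knockdown (-1.04, adjusted p = 0.0227) and *TRIB3* did not (adjusted p = 0.0671), so that the count stayed at 13, with 12 higher and 1 lower. *ATF5*, which acts in the mitochondrial stress response, had 14.6 CPM in Control, 9.09 with CTCFL-OE, and CTCFL-KD gave 10.8, as group means, and it did not pass. With the length and GC trends removed it passed as lower in both (-0.78, adjusted p = 0.0478, and -0.85, adjusted p = 0.00392), as it did without CTCFL-KD replicate 1. *CEBPB* (91.2, 102 and 88.9 CPM) and *CEBPG* (55.0, 49.1 and 70.0 CPM), which encode dimerization partners of ATF4, did not pass either, although with those trends removed both did after knockdown, *CEBPB* as lower (-0.51, adjusted p = 0.022) and *CEBPG* as higher (0.48, adjusted p = 0.0188).

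Of the effectors and feedback genes, 3 of 4 passed after knockdown, all higher (38.2% of all genes passed), and none in CTCFL-OE (3.15% of all genes), by edgeR or by DESeq2. *CHAC1*, whose enzyme degrades glutathione (ENSG00000128965.13, chr15:40952962-40956512, plus strand), had 5.41, 4.35 and 4.81 CPM in Control, 3.56, 10.2 and 7.13 with CTCFL-OE, and CTCFL-KD gave 16.8, 6.72 and 12.5. All knockdown libraries were above Control, and CTCFL-OE replicate 1 was below it while the other CTCFL-OE libraries were above. The rise after knockdown was 1.30 ± 0.39 (adjusted p = 0.0228), and it was lost without any one Control library and without CTCFL-KD replicate 1 (adjusted p up to 0.0806). *TRIB3*, a pseudokinase that restrains ATF4 and CHOP, rose by 0.67 (adjusted p = 0.0454), with 30.5 ± 1.11 CPM (SD, n = 3) in Control and 48.6 ± 15.5 in CTCFL-KD. This call held in only 3 of 17 alternative settings. With the length and GC trends removed the value was 0.31 (adjusted p = 0.253), and 0.29 (adjusted p = 0.292) with the replicate block as well. *SESN2*, which restrains mTORC1 when leucine is scarce, rose by 0.87 (adjusted p = 0.0257), from 7.49 ± 0.61 to 13.7 ± 4.98 CPM. This call was lost without any one Control library, without CTCFL-KD replicate 3 (0.53, adjusted p = 0.114) and with the length and GC trends removed (0.58, adjusted p = 0.111; 0.52 and 0.13 with the replicate block as well). *PPP1R15A*, the eIF2 phosphatase subunit that ends the response, had 24 CPM in Control, 20.7 with CTCFL-OE, and CTCFL-KD gave 28.1, as group means, and it did not pass.

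Among the 8 genes of amino acid synthesis, 4 (50%) passed after knockdown, all higher, against 38.2% of all genes, and *CBS* alone passed in CTCFL-OE, where 3.15% of all genes did. *ASNS* makes asparagine (ENSG00000070669.17, chr7:97851677-97872542, minus strand). It was listed at 0.551, 0.505 and 0.355 CPM in Control, 0.638, 1.25 and 1.04 with CTCFL-OE, and CTCFL-KD gave 0.722, 1.07 and 2.41. These levels were 7 to 44 counts a library. Every CTCFL-OE and CTCFL-KD library was above Control, with CTCFL-KD replicate 3 the highest. The rise after knockdown was 1.60 ± 0.47 (adjusted p = 0.0202), and it did not pass without Control replicate 2, Control replicate 3 or CTCFL-KD replicate 3, where without the last it was 0.94 (adjusted p = 0.121). In GENCODE 44, 99.5% of the bases of its main transcript are shared with exons of ENSG00000284707 on the same strand, which had 6 to 27 counts a library. How reads shared by overlapping genes were counted is not given in the sources used here, and the level of *ASNS* is uncertain.

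*PHGDH* catalyzes the first step of serine synthesis (ENSG00000092621.13, chr1:119648411-119744218, plus strand). It had 192, 190 and 197 CPM in Control, 244, 271 and 245 with CTCFL-OE, and CTCFL-KD gave 587, 297 and 339. The 3 groups did not overlap, in the order Control, CTCFL-OE, CTCFL-KD. The rise after knockdown was 1.08 ± 0.25 (adjusted p = 0.0063), and the difference of 0.39 in CTCFL-OE did not pass (adjusted p = 0.427). After knockdown the adjusted p passed in all alternative settings. The log2 fold change ran from 0.72 to 1.27 in them, so a fold change over 2 was not kept in all. The next enzymes of the same pathway did not pass: *PSAT1* had 154, 191 and 177 CPM and *PSPH* 26.8, 27.7 and 31.3 CPM in Control, CTCFL-OE and CTCFL-KD.

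*PYCR1* makes proline in mitochondria (ENSG00000183010.17, chr17:81932384-81942412, minus strand). It had 42.8, 37.5 and 39.6 CPM in Control, 40.1, 36.1 and 29.9 with CTCFL-OE, and CTCFL-KD gave 82.5, 62.4 and 77.0. All knockdown libraries were above all libraries of both other groups. The difference was 0.89 ± 0.18 from Control (adjusted p = 0.00305) and 1.06 ± 0.18 from CTCFL-OE (adjusted p = 0.00156). With the replicate block and the length and GC trends removed, the difference from Control was 0.52 (adjusted p = 0.0613). *ALDH18A1*, which acts earlier in proline synthesis, had 126, 165 and 185 CPM and did not pass (0.55 after knockdown, adjusted p = 0.0657), although DESeq2 called it after knockdown (adjusted p = 0.0485).

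*CBS* encodes the first enzyme of transsulfuration, which turns homocysteine and serine into cystathionine. It rose by 0.84 ± 0.19 in CTCFL-OE (adjusted p = 0.0602) and by 0.77 ± 0.19 after knockdown (adjusted p = 0.00851), with 114 ± 6.48, 205 ± 34.1 and 195 ± 26.6 CPM in Control, CTCFL-OE and CTCFL-KD (SD, n = 3). Without Control replicate 3 the knockdown difference was 0.72 and did not pass (adjusted p = 0.0507). The second enzyme, *CTH*, had 8.38, 8.33 and 6 CPM and did not pass. Without CTCFL-KD replicate 3 it passed as lower in CTCFL-KD, by -0.85 against Control (adjusted p = 0.0246) and -0.83 against CTCFL-OE (adjusted p = 0.0363). A duplicate of *CBS* in the annotation (ENSG00000274276) held 91.6% to 98.7% of the *CBS* count in each library, and the level of *CBS* is uncertain because the annotation holds this near-identical copy. Both comparisons use the same Control libraries.

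The 3 mitochondrial one-carbon enzymes did not pass in any comparison in the reported edgeR fit. *SHMT2*, which moves a carbon from serine to folate, had 133, 163 and 199 CPM (0.58 after knockdown, adjusted p = 0.0566). DESeq2 called it after knockdown (0.56, adjusted p = 0.0338), and so did edgeR without any one of the CTCFL-KD libraries. The edgeR value was 0.28 without CTCFL-KD replicate 1, and 0.74 and 0.69 without replicates 2 and 3. *MTHFD2*, the next enzyme, had 124, 110 and 107 CPM, and *ALDH1L2*, which oxidizes the formyl group, had 9.11, 15.2 and 13.8 CPM. Without CTCFL-KD replicate 1, *ALDH1L2* passed after knockdown (0.98, adjusted p = 0.00893) and in CTCFL-OE (0.73, adjusted p = 0.0565). In CTCFL-OE it also passed by edgeR with no low-count filter (adjusted p = 0.0834) and with only the 2 groups compared (0.0843). The same held with the replicate block and the length and GC trends removed (0.0777). Pseudogenes of *MTHFD2* and its paralog *MTHFD2L* together had 10.5 CPM on average, and how much of this is shared reads was not tested.

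The largest differences were in the secreted factors. The median log2 fold change of the 4 tested genes of secreted factors and a receptor was 2.74 after knockdown, where all 4 passed, and 1.69 in CTCFL-OE, where *GDF15* alone passed by edgeR and DESeq2 also called *INHBE* and *STC2*. Their median log2 ratio to Control was 0.17 in CTCFL-OE replicate 1, and 1.49 and 1.60 in replicates 2 and 3. *GDF15* is a stress hormone that acts on appetite (ENSG00000130513.6, chr19:18374731-18389176, plus strand), and the listed CTCFL site shown above lies within its annotated span. It had 3.76, 2.76 and 2.68 CPM in Control, 6.89, 11.8 and 21.8 with CTCFL-OE, and CTCFL-KD gave 22.0, 7.97 and 20.8. Every library of both treated groups was above Control, and the treated groups overlapped each other. The rise was 2.13 ± 0.46 in CTCFL-OE (adjusted p = 0.0561) and 2.46 ± 0.47 after knockdown (adjusted p = 0.00221), and the difference between the treated groups was 0.33 ± 0.43 (adjusted p = 0.594). Without CTCFL-OE replicate 3 the difference in CTCFL-OE was 1.60 and did not pass (adjusted p = 0.206).

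*INHBE* encodes the inhibin beta E subunit of activin E (ENSG00000139269.3, chr12:57452323-57459280, plus strand), and its listed CTCFL site also lies within the gene. It had 0.401, 0.466 and 0.456 CPM in Control, 0.593, 3.03 and 3.50 with CTCFL-OE, and CTCFL-KD gave 4.42, 4.40 and 11.9. The 3 groups did not overlap, although CTCFL-OE replicate 1, with 13 counts, was close to Control, with 8 to 12. The rise after knockdown was 3.96 ± 0.65 (adjusted p = 0.000953). The difference of 2.38 in CTCFL-OE did not pass (adjusted p = 0.116), but did in the fit with the replicate block (adjusted p = 0.0766), which made 2 DEGs in that comparison, and without CTCFL-OE replicate 1 (adjusted p = 0.0245). CTCFL-KD exceeded CTCFL-OE by 1.57 (adjusted p = 0.0545; 0.0186 with the block).

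*STC2* encodes stanniocalcin 2, a secreted glycoprotein (ENSG00000113739.10, chr5:173314723-173328447, minus strand). It had 19.6, 18.7 and 19.3 CPM in Control, 22.3, 56.2 and 58.5 with CTCFL-OE, and CTCFL-KD gave 123, 108 and 238. Again the groups did not overlap and CTCFL-OE replicate 1 was nearest to Control. The rise after knockdown was 3.02 ± 0.40 (adjusted p = 0.000261), the difference in CTCFL-OE was 1.25 (adjusted p = 0.136, but 0.0294 with DESeq2, and past the threshold in 8 of 17 alternative settings), and CTCFL-KD exceeded CTCFL-OE by 1.78 ± 0.38 (adjusted p = 0.0061).

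*VLDLR*, a lipoprotein receptor, rose by 0.94 after knockdown (adjusted p = 0.0199), from 47.0 ± 2.02 to 90.0 ± 27.9 CPM. It did not pass without any one Control library or without CTCFL-KD replicate 2 or 3 (adjusted p = 0.0571 to 0.0723). *FGF21* was not tested: its counts were 0, 0 and 0 in Control, 1, 2 and 0 with CTCFL-OE, and CTCFL-KD gave 3, 1 and 9. A count of 0 allows up to 3 counts in a library, a limit that covers counting error only, so of the treated libraries only CTCFL-KD replicate 3 was beyond it.

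**Figure D3:**
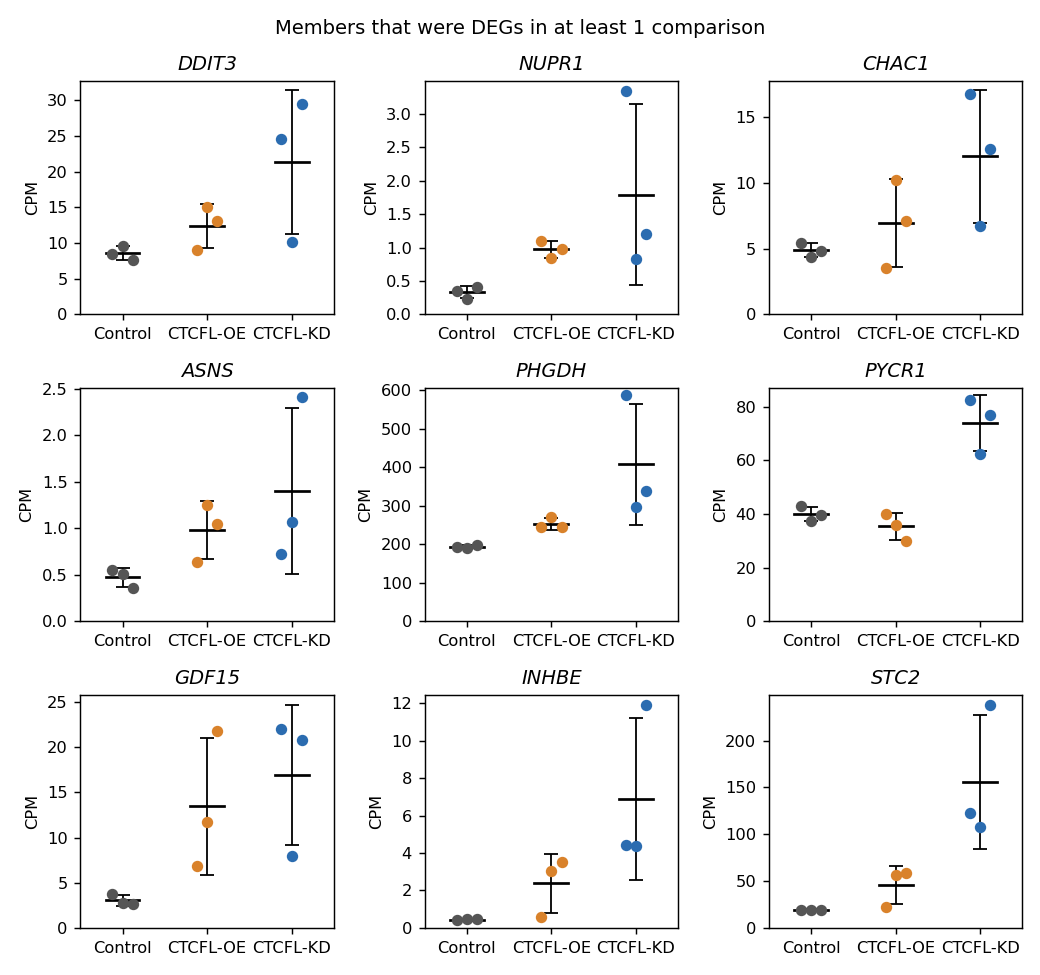
Level in CPM of the 9 genes that were DEGs in at least 1 comparison; points are libraries, horizontal bars are means and whiskers are SD, n = 3 a group. The CTCFL-KD libraries lie above Control in each panel, and for *INHBE* and *STC2* 1 of the 3 CTCFL-OE libraries is near Control.

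Knockdown and overexpression were also compared with each other, which tests whether their differences from the shared Control libraries differ. Of the 26 stress response and metabolic genes 2 passed, *STC2* and *PYCR1*, both DEGs and higher in CTCFL-KD, where 26.8% of all genes passed (15.3% higher and 11.5% lower) and 17.0% were DEGs (10.6% higher and 6.42% lower). The median log2 difference was 0.31, against 0.04 for all genes, and it was 0.10 with the length and GC trends removed (all genes -0.04), 0.18 without CTCFL-KD replicate 1 and 0.17 without CTCFL-KD replicate 3. In 5 genes all CTCFL-KD libraries were above all CTCFL-OE libraries, where 39.8% of all genes did not overlap (20.3% higher in CTCFL-KD and 19.5% lower). With the length and GC trends removed, 5 genes passed, 4 higher and 1 lower, and without CTCFL-KD replicate 1 there were 8, 6 higher and 2 lower, where 34.3% and 39.7% of all genes passed. Without CTCFL-KD replicate 2, 5 passed (24.9% of all genes) and 4 were DEGs, and without CTCFL-OE replicate 3 there was 1 DEG. Over all genes there were 3404 and 2955 DEGs in these fits, against 3032 in the reported fit.

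The 12 cytosolic synthetases were examined next. These enzymes join each amino acid to its tRNA. All 12 were tested, and per length the mean level in Control ran from 15.6 TPM (counts scaled by exon length and library) for *AARS1* to 328 for *TARS1*. In CTCFL-OE, 0 of the 12 passed edgeR's quasi-likelihood test at the adjusted p of 0.1, and DESeq2 called 2, *MARS1* and *CARS1*. Of all genes, 3.15% passed by edgeR and 8.55% by DESeq2. An unadjusted p under 0.05 was found for 3 of the 12, all higher, and for 3157 of the 17794 genes tested, 1962 of them higher. Their median log2 fold change was 0.10. In 5 of them all CTCFL-OE libraries were above those of Control and in 1 all were below, against 16.3% and 20.8% of all genes. Without CTCFL-OE replicate 1 there were 2 that passed, and without CTCFL-KD replicate 1 there were 3, where 15.1% and 27.4% of all genes passed. The largest difference was that of *CARS1*, for cysteine, with 54.4 ± 0.911 CPM in Control and 81.3 ± 15.5 in CTCFL-OE (0.58, adjusted p = 0.182).

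After knockdown, *NARS1* and *TARS1*, for asparagine and threonine, fell, and the other 10 synthetases did not pass. *NARS1* (chr18:57600656-57622213, minus strand) had 182, 185 and 191 CPM in Control, 180, 163 and 163 with CTCFL-OE, and CTCFL-KD gave 89.7, 107 and 115. *TARS1* (chr5:33440696-33468091, plus strand) had 452, 460 and 471, then 459, 471 and 466, then 214, 262 and 258 CPM. The 3 knockdown libraries of both genes were below all others, and the other 2 groups differed by little. *NARS1* fell by 0.84 ± 0.16 on the log2 scale (adjusted p = 0.00259) and *TARS1* by 0.91 ± 0.17 (adjusted p = 0.00216), and these calls held in every alternative setting. No synthetase was a DEG, by edgeR or by DESeq2, since no fold change past the adjusted p exceeded 2. Both genes carry TGATGCAA near their start, as printed above.

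The median log2 fold change of the 12 synthetases after knockdown was -0.14, against 0.08 for all genes, and 16.7% passed, against 38.2% of all genes. With the length and GC trends removed the medians were -0.02 for the synthetases and -0.04 for all genes, and without CTCFL-KD replicate 1 they were -0.04 and 0.01. All CTCFL-KD libraries were above Control in 3 synthetases and below in 4, against 28.7% and 27.6% of all genes. The 10 that did not pass ranged from -0.28 for *YARS1* (tyrosine) to 0.50 for *CARS1*. *AARS1* (alanine) had 52.7 and 65.7 CPM in Control and CTCFL-KD, *SARS1* (serine) 101 and 118, and *MARS1* (methionine) 203 and 237. *WARS1* (tryptophan) had 112 and 96.1 CPM, *GARS1* (glycine) 123 and 119, *EPRS1* (glutamate and proline) 224 and 213, *IARS1* (isoleucine) 142 and 120, *YARS1* 105 and 86.2, and *LARS1* (leucine) 224 and 195. With the length and GC trends removed 4 were lower, adding *WARS1* and *YARS1*, and without CTCFL-KD replicate 1 there were 4, of which 1, *AARS1*, was higher; 43.7% and 49.9% of all genes passed in these fits. The median exon length of the synthetases was 8402 bases, against 4564 for all genes tested.

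Between the treated groups, the same 2 synthetases (16.7%, against 26.8% of all genes) passed and were lower in CTCFL-KD than in CTCFL-OE. *NARS1* differed by -0.70 (adjusted p = 0.00977, and 0.0654 with only the 2 groups compared) and *TARS1* by -0.93 (adjusted p = 0.00281). DESeq2, by which 32.4% of all genes passed, also called *EPRS1* (-0.61, adjusted p = 0.0386) and *YARS1* (-0.36, adjusted p = 0.0279) as lower. The median of the 12 was -0.21. In 5 all CTCFL-KD libraries were below all CTCFL-OE libraries, where 19.5% of all genes were, and in 0 all were above. Without CTCFL-KD replicate 1, 4 passed, all lower, where 39.7% of all genes passed.

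Other genes of these pathways were counted from lists chosen by role. The lists were drawn up with earlier results of these data known, so their shares are not independent of the data. The study had already named *SLC6A9* and *VEGFA* among the genes changed in both of its comparisons. Among the 24 other ATF4-linked genes, 14 (58.3%) passed after knockdown, 12 higher and 2 lower, with a median of 0.82, where 38.2% of all genes passed; the largest were the glycine transporter *SLC6A9* (2.62) and the angiogenic factor *VEGFA* (2.29). In CTCFL-OE 3 of the 24 passed (12.5%, against 3.15% of all genes), 2 higher, *SLC6A9* (1.40) and *VEGFA* (1.13), and 1 lower, and DESeq2 called 7. Of 16 genes of the unfolded protein response of the endoplasmic reticulum, 10 (62.5%) passed after knockdown, all higher, with a median of 0.85, led by *XBP1* (2.25) and its activating endonuclease *ERN1* (1.61). None of the 16 passed in CTCFL-OE by edgeR or by DESeq2, and 3 had an unadjusted p under 0.05, as had 3157 of the 17794 genes tested.

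A further list held the regulators of eIF2 and other initiation factors. Of 18 genes for the eIF2 kinases, eIF2, eIF2B and related regulators, 4 (22.2%) passed after knockdown and all were lower, with a median of -0.15, where 38.2% of all genes passed and 16.8% were lower; the largest were *EIF2A* (-1.02), which encodes an initiation factor that is not a subunit of eIF2, and *EIF2S3*, the gamma subunit of eIF2 (-0.96). None passed in CTCFL-OE by edgeR, and DESeq2 called 1, where 8.55% of all genes passed by DESeq2. An unadjusted p under 0.05 was found for 2 of the 18 and for 3157 of the 17794 genes tested. Of 11 other cytosolic synthetases and scaffold proteins 4 (36.4%) passed after knockdown, near the share of all genes, *QARS1* higher (1.01) and 3 lower, led by *RARS1* (-0.97), with a median of -0.44. Of the 16 tested mitochondrial synthetases 5 (31.3%) passed, 3 higher, led by *SARS2* (0.79), and 2 lower, with a median of 0.06. In CTCFL-OE none of either list passed by edgeR or by DESeq2, and 1 of each had an unadjusted p under 0.05, against the same 3157 of 17794 genes.

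The other 15 tested serine, folate and methionine cycle genes were mixed after knockdown: 7 (46.7%, against 38.2% of all genes) passed, 2 higher and 5 lower, with a median of -0.20. *GLDC*, of the glycine cleavage system, was higher by 1.87, and *MTRR*, which reactivates methionine synthase, was lower by -1.21. *GLDC* also rose in CTCFL-OE, by 2.00, and was the 1 gene of that list to pass there by edgeR, where DESeq2 called 2. Between the treated groups, where 26.8% of all genes passed, 7 of the 24 other ATF4-linked genes did (29.2%), all higher in CTCFL-KD, and 2 of the 16 of the unfolded protein response (12.5%), *XBP1* (1.68) and *ERN1*, both higher. Of the other lists, 5 of the 15 serine, folate and methionine cycle genes passed, 4 of them lower, 2 of the 18 of the eIF2 list, both lower, 1 of the 11 other cytosolic synthetases, lower, and 1 of the 16 mitochondrial synthetases, higher.

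**Figure D4:**
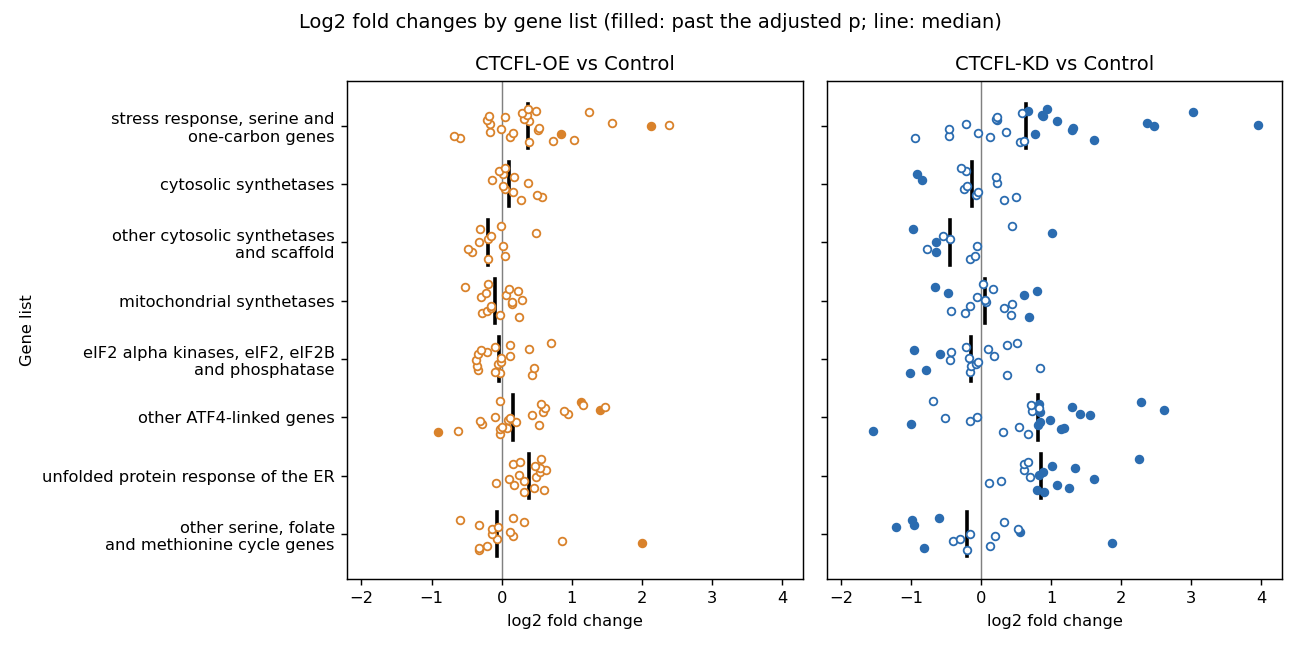
Log2 fold changes against Control of each gene in 8 lists, for CTCFL-OE (left) and CTCFL-KD (right); 1 point is 1 gene, filled where it passed the adjusted p, and black lines are medians. After knockdown the medians of the stress response and metabolic genes (0.64), the other ATF4-linked genes (0.82) and the unfolded protein response (0.85) lie to the right, while those of the cytosolic synthetases (-0.14), the other cytosolic synthetases (-0.44), the eIF2 group (-0.15) and the other serine, folate and methionine cycle genes (-0.20) lie to the left; that of the cytosolic synthetases was -0.02 with length and GC trends removed.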

How the data were processed

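RNA-seq of 9 OVCAR3 libraries was analysed from the count matrix. Per the study's methods, libraries were made with a stranded mRNA kit and sequenced paired-end, and the authors used Trimmomatic for trimming, STAR for alignment to GRCh38 and featureCounts for counting. The deposited values are raw counts per gene, and each of the 9 library files equalled its column of the matrix. The submitters' processing notes also name kallisto, with no role. Which annotation release and strand setting were used, and how multi-mapped reads were handled, are not given in the sources used here. GENCODE 44 named 60419 of the 60660 identifiers.

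Counts were fitted with edgeR 4.0.16 in R 4.3.3 (filterByExpr, TMM, glmQLFit with robust estimation, all 9 libraries, group as the only factor), and 17794 genes were tested. Adjusted p is Benjamini-Hochberg over all of them, and standard errors are those of the log2 fold change. Thresholds follow the study's methods: adjusted p under 0.1 for CTCFL-OE and 0.05 for CTCFL-KD, with a fold change over 2 for a DEG. The study's methods give no threshold for CTCFL-KD against CTCFL-OE, where 0.05 was chosen here. CPM used TMM-scaled library sizes, and TPM used exon lengths. The fit was tested on simulated data. Tables were made with Python 3.11.15 and pandas 2.3.3, and figures with matplotlib 3.10.9.

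The genes and lists were chosen with earlier results of these data known. DEGs are given library by library, other members by means and ranges, and of other lists the 2 largest called genes. Predicted CTCFL sites were taken from the study's supplementary list by sequence only. Alternatives were DESeq2 1.42.0, RLE scaling, omission of the low-count filter, a minimum of 10 counts per library, only the 2 groups compared, a replicate block, removal of length and GC trends, and each library left out. Same-numbered Control and CTCFL-KD libraries deviated together over 11622 genes (r = 0.384, 0.221 and 0.265, and 0.206, 0.128 and 0.194 with length and GC trends removed), so the numbers were taken to pair them; for CTCFL-OE and Control r was -0.045, 0.225 and -0.050, which did not pair them. The reported tests have group as the only factor, so those of CTCFL-KD against Control leave this pairing out. The fits with the replicate block are given as alternatives. The 3 libraries a group are described as biological replicates.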

Additional observations from a re-analysis of the deposited data

How the results depend on the processing

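Of 1929 combinations of a gene, a comparison and an alternative setting, 1773 kept the direction where called and their side of the threshold, 108 passed only under the alternative, 46 passed only in the reported fit and 2 reversed. The reversed ones were *ATF4* without CTCFL-KD replicate 1, at -0.35 against Control and -0.47 against CTCFL-OE; with each library left out in turn, these values ran up to 0.33 and 0.19. After knockdown, 5 of the 13 called stress response and metabolic genes passed in every setting in which they were tested, as did both called synthetases; 2 of the 5, *NUPR1* and *INHBE*, were not tested with at least 10 counts in every library.

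In CTCFL-OE, the 2 stress response and metabolic genes past the adjusted p became 5 with DESeq2, 6 with no low-count filter, 11 (10 higher, 1 lower) with only the 2 groups compared, 5 (4 higher, 1 lower) with length and GC trends removed, 6 with the replicate block and those trends removed, and 0 to 9 with 1 library left out. The share of all genes moved from 3.15% to 8.55%, 4.01%, 20.2%, 7.37%, 7.34%, and 0.24% to 27.4%. The 1 DEG became 4, 4, 5, 3 and 3 in these settings, 2 with the replicate block alone, and 0 to 4 with 1 library left out. In the same order, the 368 DEGs over all genes became 642, 826, 835, 550 and 536, then 302, and 44 to 1184. The 0 synthetases became 2 with DESeq2, 2 with only the 2 groups compared and 0 to 3 with 1 library left out.

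In CTCFL-KD, the 13 stress response and metabolic genes past the adjusted p were 6 to 17 with 1 library left out; the 8 DEGs were 5 with at least 10 counts in every library, where 23 genes were tested, and 5 to 10 with 1 library left out. The 2 synthetases became 4 with trends removed, with or without the replicate block, and were 2 to 4 with 1 library left out. Of all genes, 43.7% passed with trends removed, 44% with the block as well, and 25.8% to 49.9% with 1 library left out, against 38.2%. The 4132 DEGs over all genes were 2917 with at least 10 counts in every library and 3661 to 4511 with 1 library left out.

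In CTCFL-KD against CTCFL-OE, the 2 stress response and metabolic genes became 5 with DESeq2, 5 with no low-count filter, 5 with trends removed, 6 with the replicate block and trends removed, and 2 to 8 with 1 library left out; the 2 DEGs became 1 with trends removed and 1 to 4 with 1 library left out. The 2 synthetases became 4 with DESeq2, 1 with only the 2 groups compared, 4 with the replicate block and trends removed, and 2 to 4 with 1 library left out. Of all genes, 26.8% became 32.4% with DESeq2, 16.1% with no low-count filter, 15.5% with only the 2 groups compared, 34.3% with trends removed, 34.4% with the block as well, and 17.3% to 39.7% with 1 library left out. The 3032 DEGs over all genes were 3029 with trends removed and 2544 to 3404 with 1 library left out.

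The replicate block alone moved no count by over 1.5 times except the DEGs in CTCFL-OE. The cause of these changes was not tested, beyond the fewer libraries or genes in a fit. Where 1 library is left out, its group has 2 libraries and the spread is shared over all groups. Genes with few counts, such as *NUPR1* and *ASNS*, are limited by depth.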
